A study of Mus musculus with 18 samples.

Results

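This report describes 6 genes in mouse ileum that were listed together as fasting genes of liver or targets of the nuclear receptor PPARα, namely Angptl4, Fgf21, Gdf15, Creb3l3, Vnn1 and Txnip. They were chosen by gene symbol from a fixed list and make up 6 of the 55487 genes in the deposited files, and the list was drawn up with other results of the same libraries known. RNA was sequenced from whole-thickness ileum of 18 chow-fed mice with 1 library per mouse. The 6 control mice carried the conditional CAG-Ppara,-EGFP transgene but lacked Villin-CreERT2. The 6 heterozygous and 6 homozygous IEC-Ppara mice carried 1 or 2 copies of that transgene together with Villin-CreERT2, a tamoxifen-activated recombinase made in intestinal epithelium only. All mice, controls included, were littermates that received tamoxifen at 100 mg/kg on each of 3 days at an age of 8 to 13 weeks, and tissue was taken 2 weeks after the last dose. Recombination turns a FLAG-tagged Ppara and an EGFP reading frame, placed in the Col1a1 safe harbor locus, into the direction of the strong CAG promoter, so the model raises PPARα only in cells with Villin activity, while the libraries also hold muscle, stroma and immune cells. The groups held 3 females and 3 males (control), 2 females and 4 males (heterozygous) and 2 females and 4 males (homozygous).

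PPARα is a fatty acid-activated transcription factor that pairs with RXR on DNA and switches on fatty acid oxidation and ketone body production, in liver mainly during fasting. Several of its liver targets encode secreted proteins that carry the fasting signal to other organs. ANGPTL4 inhibits lipoprotein lipase and so limits triglyceride clearance from plasma, FGF21 is a hormone that acts through an FGF receptor with the co-receptor β-Klotho, and GDF15 is a stress hormone that acts on the hindbrain receptor GFRAL with RET. CREB3L3, also called CREBH, is a membrane-bound transcription factor that is released by cleavage and that acts together with PPARα in liver. VNN1 is a pantetheinase at the cell surface that splits pantetheine into vitamin B5 and cysteamine, and TXNIP binds thioredoxin and restrains glucose uptake.

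Total counts on genes were 38528522 to 50376371 per library, and the 3-count floor used below came to 0.0596 to 0.0779 CPM (counts scaled to the library total). Ppara itself, which checks the genotype labels, had a lowest, median and highest level of 25.8, 39.4 and 47.4 CPM in controls, of 107, 136 and 196 CPM in heterozygous and of 184, 211 and 279 CPM in homozygous libraries. Every transgenic library lay above every control, and the counts do not tell transgene from endogenous transcript. In the edgeR quasi-likelihood test Ppara was 3.79-fold higher in heterozygous mice (adjusted p = 8.4e-06) and 5.69-fold higher in homozygous mice (adjusted p = 2.1e-07) than in controls, while the 1.5-fold difference between the transgenic groups did not pass (adjusted p = 0.485). Ileal markers were abundant in every library, with the bile acid-binding protein gene Fabp6 at 1914 to 5489 CPM and the bile acid transporter gene Slc10a2 at 355 to 680 CPM. The libraries differed in attached fat. The summed level of 10 adipocyte markers ran from 2.29 to 1059 CPM in controls, from 2.17 to 990 CPM in heterozygous and from 23.0 to 903 CPM in homozygous libraries, and it exceeded 500 CPM in 5 libraries (control replicate 4, heterozygous replicates 4 and 6, homozygous replicates 3 and 4). The adipocyte hormone gene Adipoq was at 0 in 6 libraries. B cell markers summed to over 50 CPM in 4 other libraries (control replicates 2 and 3, heterozygous replicate 2, homozygous replicate 1). The 8 hepatocyte markers summed to medians of 21.2, 14.8 and 53.9 CPM in control, heterozygous and homozygous libraries. Among the adipocyte-high libraries the sum was 78.0 CPM in control replicate 4 and 87.9 and 94.6 CPM in heterozygous replicates 4 and 6. It was 55.4 CPM in homozygous replicate 3 and 108 CPM, the highest of all, in homozygous replicate 4. The other libraries had 7.55 to 59.2 CPM. Cyp2e1 was at up to 73.2 CPM, Tat at 6.07 to 59.0 CPM and albumin (Alb) at up to 12.9 CPM. The 8 exocrine pancreas markers summed to medians of 4.19, 4.99 and 6.03 CPM, with Cela1 at 3.65 to 6.51 CPM and each of the others at 0.390 CPM or less in every library. Each library is a mix of cells, in which fewer cells of a type and less RNA per cell cannot be told apart.

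Per length, in FPKM (counts scaled to exon length and library total), the members covered a wide range of levels. In controls Txnip was the most abundant at 132 ± 17.0 FPKM (SD, n = 6), followed by Vnn1 at 55.0 ± 9.59, Creb3l3 at 41.4 ± 10.1, Angptl4 at 11.1 ± 3.22, Gdf15 at 1.46 ± 0.713 and Fgf21 at 0.0965 ± 0.0667 FPKM. The order of the group means was the same in homozygous libraries, where Txnip stood at 145 ± 13.3, Vnn1 at 93.5 ± 10.7, Creb3l3 at 66.0 ± 10.4 and Angptl4 at 21.5 ± 9.58 FPKM. Vnn1 and Creb3l3 were neighbours whose libraries overlapped in level, with 43.4 to 67.3 against 24.0 to 52.2 FPKM in controls, whereas the other neighbours in this order were separated in all 3 groups. Of the 6 members, 4 passed the filter of more than 3 CPM in at least 4 libraries (Angptl4, Creb3l3, Vnn1 and Txnip) and entered the test across 12645 protein-coding genes. Fgf21 exceeded 3 CPM in 0 libraries and Gdf15 in 3, so both were compared on their own.

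**Figure D1:**
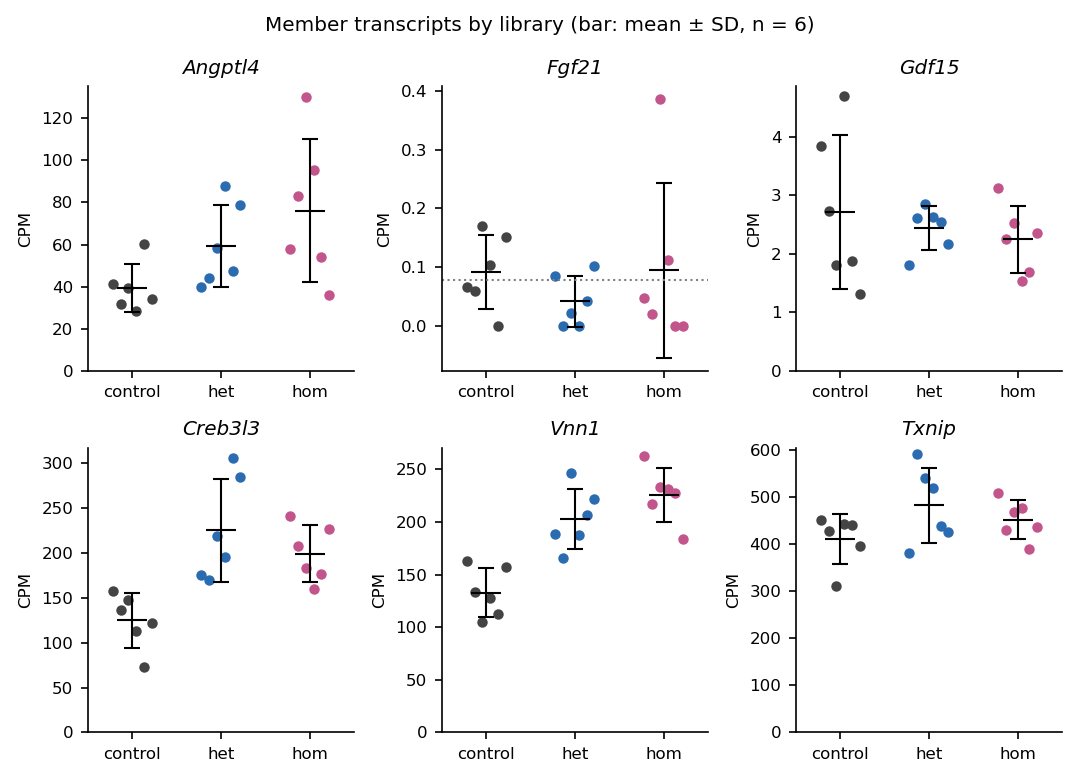
Level of each member in CPM (y axis, linear) in the 6 control, 6 heterozygous (het) and 6 homozygous (hom) libraries, with each point a mouse and the bars the mean ± SD; the dotted line in the Fgf21 panel is the highest 3-count floor, 0.0779 CPM. Vnn1 and Creb3l3 points of both transgenic groups lie above all control points, Angptl4 and Txnip groups overlap, and Fgf21 lies around the floor apart from 1 homozygous library at 0.387 CPM.

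The question for each member was whether raising epithelial Ppara changed its transcript in ileum, and whether the second transgene copy added to the change. Of the 4 members tested, 1 (Vnn1) was called higher in homozygous than in control mice at an adjusted p under 0.05, where 0.372% of all genes tested were called higher. Likewise 1 (Vnn1) was called higher in heterozygous mice, against 0.293% of all genes. None was called between homozygous and heterozygous mice by edgeR, where 0.00791% of genes were called in either direction, and none of the 4 had an unadjusted p under 0.05 there. Of all 12645 genes tested, 962 had one. The 6 homozygous libraries lay wholly above the 6 controls for 2 of the 4 members (Vnn1 and Creb3l3), as they did for 0.593% of genes tested. The heterozygous libraries did so for the same 2 members and for 0.293% of genes. Both comparisons against controls use the same 6 control libraries, so their values are given side by side and not as support for each other. Angptl4, Creb3l3 and Vnn1 also stand in the gene set that the study chose from these libraries. The study chose by a P cut-off, without naming an adjustment, in any pairwise genotype comparison. That rule differs from the adjusted p used here, and the set comes from the same libraries, so it is no separate support.

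**Figure D2:**
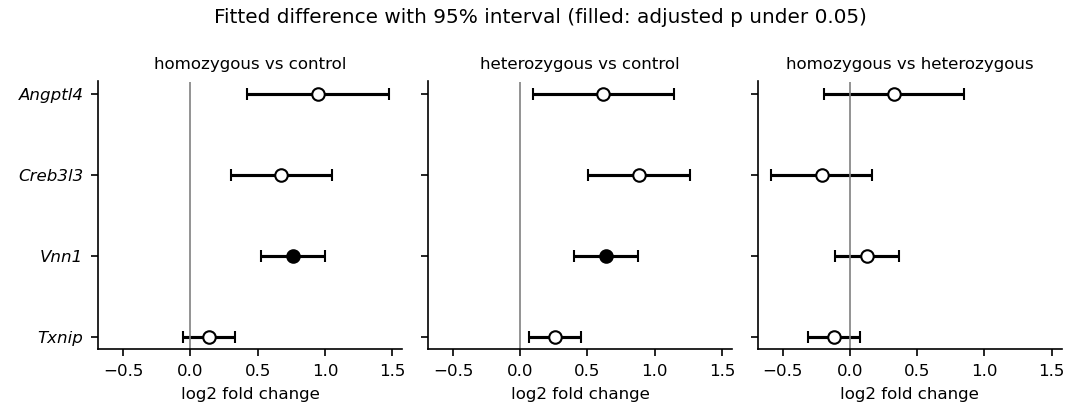
Fitted log2 fold change (x axis) of the 4 tested members in each of the 3 genotype comparisons, with bars for the 95% interval and filled points for an adjusted p under 0.05. Vnn1 carries the only filled points, at 0.76 and 0.64 against controls, and all 4 intervals of the homozygous against heterozygous comparison include 0.

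Vnn1, the pantetheinase gene (ENSMUSG00000037440, GRCm38 chromosome 10, 23894688 to 23905343, plus strand), gave the clearest difference. Its lowest, median and highest levels were 105, 130 and 162 CPM in controls, 166, 198 and 246 CPM in heterozygous and 184, 229 and 263 CPM in homozygous libraries. The lowest heterozygous library, replicate 2 at 166 CPM, lay just above the highest control, replicate 1 at 162 CPM, so the groups were separate but close. Vnn1 rose 1.70-fold in homozygous mice (log2 fold change 0.76, SE 0.12, edgeR adjusted p = 0.0031) and 1.56-fold in heterozygous mice (log2 fold change 0.64, SE 0.12, edgeR adjusted p = 0.0257). The homozygous call remained when any 1 library was left out, with adjusted p-values of 0.0011 to 0.0121. It was lost when the 4 libraries high in B cell markers were left out together (log2 fold change 0.63, adjusted p = 0.0727) or the 5 high in adipocyte markers (0.74, adjusted p = 0.125). The heterozygous call was lost when any 1 of 7 libraries was left out (control replicates 2, 3, 4 and 5 and heterozygous replicates 3, 5 and 6), where adjusted p rose to between 0.0630 and 0.0902 and the log2 fold change stayed between 0.58 and 0.63. It was also lost without the B cell-high libraries (adjusted p = 0.123), without the adipocyte-high libraries (adjusted p = 0.452), in a fit of only the 12 libraries compared (adjusted p = 0.141) and with replicate number as a block (adjusted p = 0.105), at log2 fold changes of 0.62 to 0.64. Between homozygous and heterozygous mice the log2 difference was 0.13 with a 95% interval of -0.11 to 0.36.

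The 4 tested members were also examined by sex in the 3 comparisons, as an addition made after the data were seen. The sex difference passed for none of the 12 (edgeR adjusted p of 0.234 or more), and Vnn1 in heterozygous mice is given because it had the smallest p. In heterozygous mice its level was 166 to 189 CPM in the 2 females and 187 to 246 CPM in the 4 males, against 127 to 162 CPM in female and 105 to 133 CPM in male controls. The fitted heterozygous difference was 0.94 (SE 0.14) in males and 0.24 (SE 0.16) in females on the log2 scale. The test of the sex difference itself gave 0.70 (SE 0.21) with an unadjusted p of 0.0049 and an edgeR adjusted p of 0.234 across all genes, so it did not pass. In homozygous mice Vnn1 was at 0.96 (SE 0.14) in males and 0.59 (SE 0.16) in females, with a difference of 0.37 (SE 0.21, edgeR adjusted p = 1.00). Creb3l3 in heterozygous mice was at 1.14 (SE 0.25) in males and 0.39 (SE 0.29) in females, with a difference of 0.74 (SE 0.38, edgeR adjusted p = 0.759) that did not pass. Tested against controls of the same sex, Vnn1 passed in homozygous males (edgeR adjusted p = 0.0025) and in heterozygous males (edgeR adjusted p = 0.0034). Creb3l3 passed in heterozygous males (edgeR adjusted p = 0.0348). No member passed in females. Over all genes, 58 and 228 were called in males and 13 and 4 in females, in homozygous and heterozygous mice in turn. The male tests set 4 transgenic mice against 3 controls and the female tests 2 against 3, so these counts are not like for like. The sex difference itself was called for 0 genes in each comparison.

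Creb3l3, the gene of the membrane-bound transcription factor CREBH (ENSMUSG00000035041, chromosome 10, 81084324 to 81098874, minus strand), had the second clear separation of groups and the higher mean in the heterozygous group. Its lowest, median and highest levels were 72.4, 129 and 157 CPM in controls, 170, 207 and 306 CPM in heterozygous and 159, 196 and 241 CPM in homozygous libraries. Every transgenic library lay above every control, by the narrowest margin between homozygous replicate 4 and control replicate 1. The fitted fold was 1.85 in heterozygous mice (log2 fold change 0.88, SE 0.19, edgeR adjusted p = 0.0692) and 1.60 in homozygous mice (log2 fold change 0.68, SE 0.19, edgeR adjusted p = 0.218), so neither passed. With DESeq2 on the same genes both passed, with adjusted p-values of 0.00072 and 0.0319. In the edgeR fits that each left out 1 library, the heterozygous value had adjusted p-values of 0.0391 to 0.211 and passed without control replicate 1, heterozygous replicate 1 or heterozygous replicate 2. Homozygous and heterozygous mice differed by -0.21 on the log2 scale with a 95% interval of -0.58 to 0.17.

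The start of the full-length Creb3l3 transcript is shown because the libraries of this gene separated by genotype. The 300-base RefSeq window (GRCm38.p6, chr10:81098823-81099122, minus strand, from 250 bases before the start site to 50 after it) was searched on both strands for a PPAR element (a direct repeat, AGGNCANAGGNCA), an amino acid response element (TGATGNAA), a carbohydrate response element (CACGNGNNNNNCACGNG), an E-box (CACGTG) and a TATA box (TATAAA). The carbohydrate response element can hold E-boxes within it, and the letters were chosen after the windows had been looked at. None of the 5 motifs occurs in this window, so it has no capitals.
Creb3l3: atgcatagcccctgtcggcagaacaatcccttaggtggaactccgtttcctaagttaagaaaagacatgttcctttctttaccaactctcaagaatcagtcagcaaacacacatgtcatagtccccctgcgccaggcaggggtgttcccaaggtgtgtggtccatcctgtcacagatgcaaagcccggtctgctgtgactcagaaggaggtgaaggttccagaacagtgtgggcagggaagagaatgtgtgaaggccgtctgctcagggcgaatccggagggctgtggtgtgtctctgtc
Among 32817 windows of this length in the reference, 0.381% held the PPAR element, 3.97% the amino acid response element, 0.0488% the carbohydrate response element, 7.15% the E-box and 13.6% the TATA box. Windows were found for 4 of the 6 members. Angptl4 and Vnn1 had no entry. A match is a description of letters, and no binding was measured in these samples.

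Angptl4, the lipoprotein lipase inhibitor gene (ENSMUSG00000002289, chromosome 17, 33773750 to 33781830, minus strand), had the largest fitted homozygous difference of the 4 tested members and the widest spread. Its lowest, median and highest levels were 28.5, 36.7 and 60.4 CPM in controls, 39.8, 52.8 and 87.7 CPM in heterozygous and 36.0, 70.3 and 130 CPM in homozygous libraries. The groups overlapped, since 3 of 6 homozygous and 2 of 6 heterozygous libraries exceeded the highest control and homozygous replicate 6 lay below the control median. The fold was 1.93 in homozygous mice (log2 fold change 0.95, SE 0.27, edgeR adjusted p = 0.218) and 1.53 in heterozygous mice (log2 fold change 0.62, SE 0.27, edgeR adjusted p = 0.898). Neither passed by edgeR, and the homozygous value passed with DESeq2 (adjusted p = 0.0296). Within genotypes the SD of Angptl4 was 0.52 on the log2 scale, and 91.3% of the genes tested had a lower one. Creb3l3 had 0.34, Vnn1 0.21 and Txnip 0.20, beside a median of 0.19 over all genes tested.

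Angptl4 is also made by adipocytes, so its level was set beside the fat markers. In the 5 libraries with over 500 CPM of adipocyte markers it was 28.5 CPM in control replicate 4, 87.7 and 78.6 CPM in heterozygous replicates 4 and 6, and 130 and 95.2 CPM in homozygous replicates 3 and 4. The control among them had the highest adipocyte sum of all 18 libraries and the lowest Angptl4 level of all. In the 13 remaining libraries Angptl4 was 41.4 ± 11.3 CPM (SD, n = 5) in controls, 47.4 ± 7.79 CPM (SD, n = 4) in heterozygous and 57.7 ± 19.3 CPM (SD, n = 4) in homozygous mice. Fitted without those 5 libraries, the homozygous log2 fold change fell from 0.95 to 0.49 (edgeR adjusted p = 0.712) and the heterozygous one from 0.62 to 0.23 (edgeR adjusted p = 1.00). With the adipocyte score as a covariate in all 18 libraries the homozygous value was 0.80 (edgeR adjusted p = 0.367) and the heterozygous one 0.61 (edgeR adjusted p = 0.803). Across the 18 libraries, which fall into 3 genotypes, Pearson's r between Angptl4 and the adipocyte score in log2 CPM was 0.41. Other marker scores had r values with Angptl4 of 0.63 (proximal intestine, a list that includes the PPARα target Fabp1), -0.61 (Paneth), 0.49 (fibroblast) and 0.42 (macrophage and dendritic cell). With genotype means taken off these were 0.28, -0.48, 0.48 and 0.53, beside 0.40 for adipocytes. The exocrine pancreas score, which rests on Cela1 alone, had r values of 0.44 with Angptl4, 0.48 with Vnn1, 0.41 with Creb3l3 and 0.49 with Txnip, and of 0.10, -0.17, -0.06 and 0.37 with genotype means taken off. The hepatocyte score, which rests on 2 tested genes, had r values with Angptl4 of 0.39 and 0.32. The part of fat or of these cell types in the Angptl4 difference was not tested. Vnn1 had an r of -0.01 with the adipocyte score, or -0.27 with genotype means taken off, and its homozygous log2 fold change was 0.76 with and 0.74 without the 5 libraries. Its r was 0.90 with the proximal intestine score, -0.73 with T cells, -0.47 with Paneth cells and -0.43 with B cells, and 0.49, -0.45, -0.19 and -0.33 with genotype means taken off. The median summed level in control, heterozygous and homozygous libraries was 107, 223 and 265 CPM for the 9 proximal intestine markers and 56.3, 36.0 and 35.8 CPM for the 10 T cell markers, and their part in the Vnn1 difference was not tested. Without Fabp1, in a calculation added after seeing the data, the other 8 proximal intestine markers summed to medians of 93.0, 115 and 115 CPM. The score used for r holds only genes that passed the filter, 3 of these 8, or 4 of the 9 with Fabp1. With the score of the 3, Vnn1 had an r of 0.78, or 0.52 with genotype means taken off. Angptl4 had 0.50 and 0.19. Creb3l3 had r values of 0.80 with the proximal intestine score (0.62 without Fabp1), 0.61 with the ileal enterocyte score, -0.60 with T cells and -0.28 with fibroblasts. With genotype means taken off these were 0.45 (0.16 without Fabp1), 0.63, -0.24 and -0.53, and their part in the Creb3l3 difference was not tested.

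**Figure D3:**
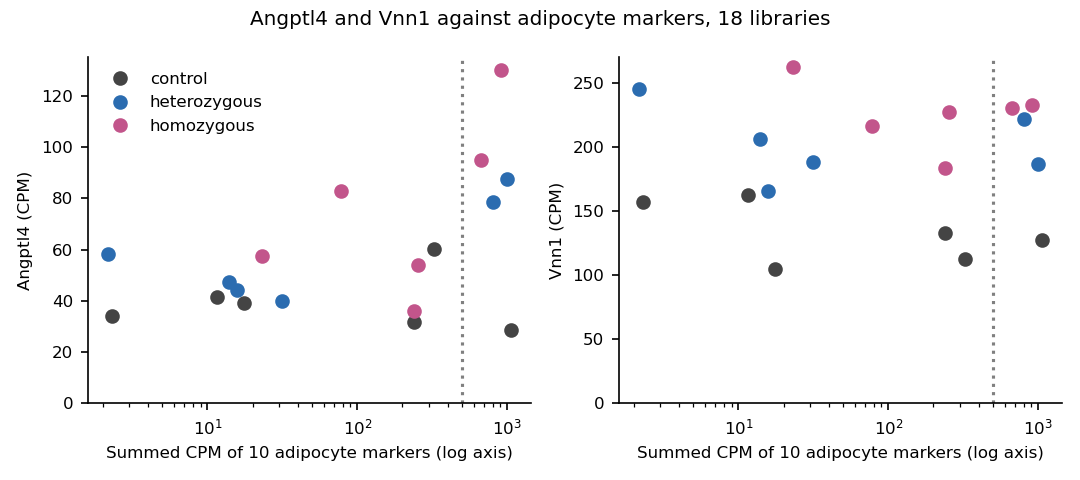
Angptl4 (left) and Vnn1 (right) in CPM (y axis) against the summed CPM of 10 adipocyte markers (x axis, log scale) in the 18 libraries, coloured by genotype, with a dotted line at 500 CPM. To the right of the line 4 transgenic libraries have Angptl4 at 78.6 to 130 CPM and the 1 control has 28.5 CPM, while Vnn1 shows a similar range on both sides.

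Txnip, the thioredoxin-binding protein gene (ENSMUSG00000038393, chromosome 3, 96557957 to 96561883, plus strand), was abundant in every library. Its lowest, median and highest levels were 311, 434 and 452 CPM in controls, 381, 479 and 591 CPM in heterozygous and 389, 453 and 507 CPM in homozygous libraries. The groups overlapped, and 3 of 6 libraries of each transgenic group exceeded the highest control. The log2 fold change was 0.14 in homozygous mice (SE 0.10, 95% interval -0.05 to 0.33, edgeR adjusted p = 0.746) and 0.26 in heterozygous mice (SE 0.10, 95% interval 0.07 to 0.45, edgeR adjusted p = 0.732). Without control replicate 3 the homozygous value was 0.08, and without the 4 libraries high in B cell markers, of which that is one, the values were 0.03 and 0.13 (edgeR adjusted p = 0.979 and 1.00). An increase above 1.26-fold in homozygous mice lies outside that interval, which is not adjusted for the number of genes tested. Its start window is shown for the glucose-response letters it holds (RefSeq, GRCm38.p6, chr3:96557707-96558006, plus strand), with the carbohydrate response element in capitals at 85 to 69 bases before the start site.
Txnip: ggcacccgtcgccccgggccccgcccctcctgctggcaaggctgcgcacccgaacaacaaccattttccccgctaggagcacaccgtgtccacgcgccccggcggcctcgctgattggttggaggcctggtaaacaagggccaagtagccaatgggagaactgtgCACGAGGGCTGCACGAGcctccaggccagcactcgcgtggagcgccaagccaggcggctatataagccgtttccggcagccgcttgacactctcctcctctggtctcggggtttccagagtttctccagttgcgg
Of the 32817 windows, 16 hold these letters. The letters were chosen after the windows had been looked at, so this share cannot measure how unusual the match is.

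Fgf21, the fasting hormone gene (ENSMUSG00000030827, chromosome 7, 45613886 to 45615490, minus strand), was too low to judge. The counts in replicates 1 to 6 were 3, 3, 7, 4, 0 and 6 in controls, 4, 0, 1, 0, 2 and 4 in heterozygous and 2, 1, 17, 5, 0 and 0 in homozygous libraries. In 11 of 18 libraries it was at or under the floor of 3 counts, and in 5 it had no count. The summed 23, 11 and 25 counts of the groups correspond to 0.0874 CPM (exact 95% Poisson interval 0.0554 to 0.131), 0.0409 CPM (0.0204 to 0.0732) and 0.0935 CPM (0.0605 to 0.138), intervals that cover counting error only. A two-sided exact permutation test of mean CPM over all arrangements of the libraries gave p = 0.978 for homozygous and p = 0.139 for heterozygous mice against controls (n = 6 per group), and p = 0.569 between the transgenic groups. The homozygous mean rested on replicate 3, which held 17 of the 25 counts and was also the library with the highest Angptl4. No difference was detectable at this depth, and no fold is given. Its window (RefSeq, GRCm38.p6, chr7:45615441-45615740, minus strand) is shown because it holds 3 of the motifs searched, in capitals, namely the amino acid response element read on the opposite strand at 139 to 132 bases before the start site, an E-box at 50 to 45 and a TATA box at 28 to 23 bases before it.
Fgf21: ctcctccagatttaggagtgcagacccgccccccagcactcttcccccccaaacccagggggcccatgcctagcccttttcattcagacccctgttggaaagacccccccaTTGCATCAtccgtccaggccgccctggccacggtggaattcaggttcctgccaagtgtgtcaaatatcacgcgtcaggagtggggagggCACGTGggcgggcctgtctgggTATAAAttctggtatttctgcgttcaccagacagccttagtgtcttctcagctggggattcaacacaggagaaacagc

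Gdf15, the stress hormone gene (ENSMUSG00000038508, chromosome 8, 70629393 to 70632456, minus strand), was low but counted in all libraries, with 52 to 181 counts. Its lowest, median and highest levels were 1.31, 2.31 and 4.70 CPM in controls, 1.82, 2.57 and 2.85 CPM in heterozygous and 1.54, 2.30 and 3.12 CPM in homozygous libraries. The control libraries spanned the levels of both other groups, and 2 of the 3 libraries above 3 CPM were controls. The difference in mean CPM was -0.465 for homozygous against control mice (two-sided exact permutation test, p = 0.452, n = 6 per group) and -0.278 for heterozygous against control mice (exact permutation p = 0.639). The smallest p this test can give is 0.0022. The window of the upstream start site (RefSeq, GRCm38.p6, chr8:70632407-70632706, minus strand) is shown because it is the 1 member window with the PPAR element, in capitals at 55 to 43 bases before the start, in a gene whose level differed by less than the spread between libraries.
Gdf15: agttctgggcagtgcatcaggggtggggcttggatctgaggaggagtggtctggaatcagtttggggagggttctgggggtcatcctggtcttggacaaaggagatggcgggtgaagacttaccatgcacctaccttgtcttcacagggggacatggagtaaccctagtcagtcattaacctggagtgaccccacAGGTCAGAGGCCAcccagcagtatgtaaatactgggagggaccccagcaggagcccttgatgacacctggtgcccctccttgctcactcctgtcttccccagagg

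The members were set against Ppara library by library. Across the 18 libraries, which fall into 3 genotypes, Pearson's r with Ppara in log2 CPM was 0.90 for Vnn1, 0.77 for Creb3l3, 0.51 for Angptl4 and 0.34 for Txnip. With the genotype means taken off these were 0.48, 0.54, -0.38 and -0.09. Within genotypes Vnn1 and Creb3l3 thus kept a positive r, and Angptl4 did not.

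**Figure D4:**
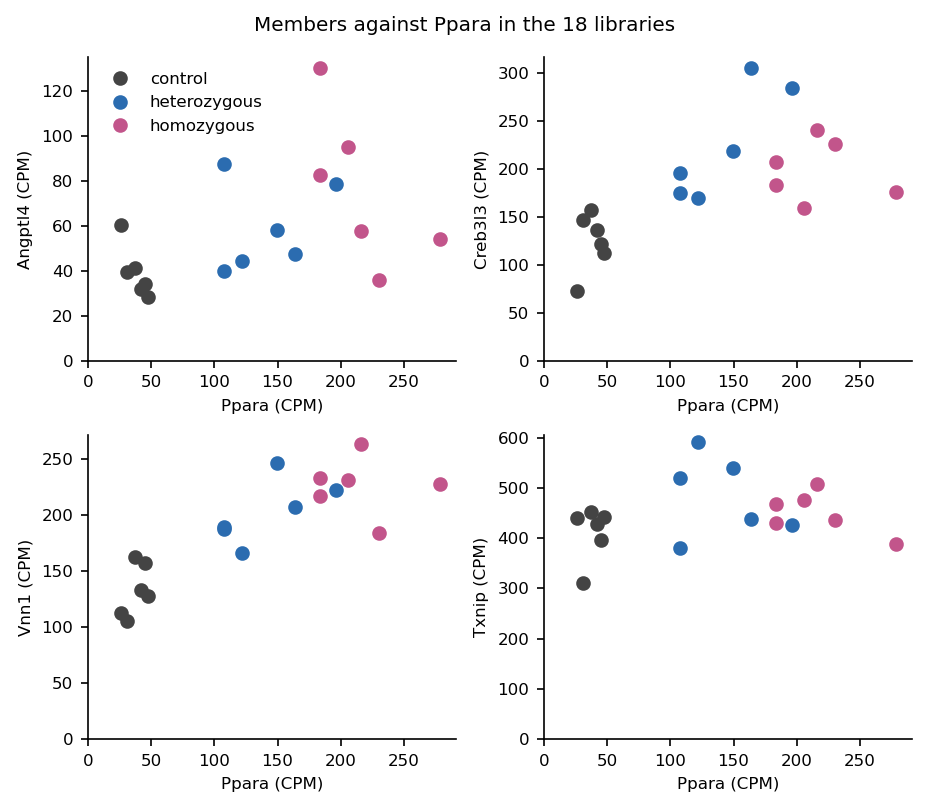
Each tested member in CPM (y axis) against Ppara in CPM (x axis) in the 18 libraries, coloured by genotype. The control points form a group at 25.8 to 47.4 CPM of Ppara, and the transgenic points rise above them for Vnn1 and Creb3l3 but spread widely for Angptl4 and overlap for Txnip.

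The genes whose levels most resembled each member across the 18 libraries were ranked by Pearson's r in log2 CPM, as a description of libraries that fall into 3 genotypes. For Vnn1 they were Acot12, an acetyl-CoA hydrolase gene (r = 0.95), Slc25a20, the mitochondrial acylcarnitine carrier gene (r = 0.94), and Hsd17b11, a lipid droplet dehydrogenase gene (r = 0.93). For Creb3l3 they were the Rab GTPase gene Rab30 (r = 0.89), the cytidine deaminase gene Cda (r = 0.89) and Abcd3, a peroxisomal fatty acid transporter gene (r = 0.87). For Angptl4 they were Actr1b, Kif1c and Prmt2, all at r = 0.80. For Txnip they were Mettl27 (r = 0.86), Ttc38 (r = 0.82) and Syna (r = 0.80). With genotype means taken off, the closest to Vnn1 were Btnl1 (r = 0.86), the pantothenate kinase gene Pank2 and Acad11 (both r = 0.83), and the closest to Creb3l3 were Gal3st2b (r = 0.80), Rab30 (r = 0.79) and Maff (r = 0.78). For Angptl4 they were then Tppp (r = 0.89), Gosr2 (r = 0.80) and Actr1b (r = 0.79), and for Txnip Surf1 (r = 0.88), Mettl27 (r = 0.85) and the α-arrestin gene Arrdc1 (r = 0.83). Of the all-library neighbours, Acot12 and Slc25a20 of Vnn1 stand in the list of PPARα targets described below, and Rab30, Actr1b and Mettl27 stayed among the closest 3 after the means were removed.

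The pathways around the members were described from 10 gene lists, for which calls were counted in the same edgeR fit. Among PPARα targets other than the members, 36 of 40 passed the filter, 14 rose and 0 fell in homozygous mice, and 11 rose and 0 fell in heterozygous mice. DESeq2 called 24 and 25 of them and limma-voom 14 and 12. The median log2 fold change of the 36 was 0.52 and 0.45, beside a median of 0.00 and -0.01 over all genes tested. Those called included Fabp1, a fatty acid-binding protein gene, with log2 fold changes of 3.88 (SE 0.23) in homozygous and 3.40 (SE 0.22) in heterozygous mice. Pdk4, which restrains pyruvate oxidation, had 3.66 (SE 0.44) and 3.22 (SE 0.43). Cyp4a10, a fatty acid ω-hydroxylase gene, was called in both groups, with mean levels of 0.0690 CPM in controls, 6.23 CPM in heterozygous and 7.00 CPM in homozygous mice; no fold is given because the control libraries were near or at 0. Acaa1b, Acadvl, Slc25a20, Acot12 and Aldh3a2 were also called in both groups, Fabp2, Plin2, Acsl3, Slc22a5 and Fitm2 in homozygous mice, and Slc27a2 and Etfdh in heterozygous mice, and the difference between the groups passed for none of them. The Vnn1 difference of 0.76 and 0.64 was thus above the median of this list and far below its leading genes.

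Calls were otherwise rare in the lists tied to single members. Over all 12645 genes tested, 1019 had an unadjusted edgeR p under 0.05 in homozygous and 669 in heterozygous mice against controls. In the lipoprotein lipase axis of Angptl4, 7 of 13 genes passed the filter and none was called in any comparison by edgeR, DESeq2 or limma-voom (unadjusted p under 0.05 for 0 genes in homozygous and 1 gene in heterozygous mice against controls), with Apoe at 0.01 (SE 0.25) and Apoc3 at 0.08 (SE 0.23) in homozygous mice. In the list of CREBH targets and processing proteins, 11 of 16 passed and none was called by any of the 3 tools, with 2 and 1 at an unadjusted p under 0.05. The apolipoprotein genes Apoa1 and Apob had homozygous log2 fold changes of 0.13 (SE 0.13) and 0.13 (SE 0.22). 2 further genes of this list were picked after their values were seen, since their levels differed most in size. Apoa4, a lipoprotein gene that CREBH is known to activate, averaged 32.5 CPM in controls, 78.7 CPM in heterozygous and 82.4 CPM in homozygous mice with edgeR adjusted p-values of 0.732 and 0.482. Saa3, an acute phase gene, averaged 14.2, 20.2 and 56.9 CPM (homozygous adjusted p = 0.676). In the list of pantetheine and coenzyme A genes around Vnn1, 11 of 13 passed and none was called by edgeR, with 1 and 1 at an unadjusted p under 0.05. DESeq2 called Ppcs, a coenzyme A synthesis gene, in homozygous mice, where it was at 0.43 (SE 0.12, edgeR adjusted p = 0.172). Pank3, a pantothenate kinase gene, was at 0.23 (SE 0.22) there.

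For the receptors of FGF21 and GDF15, 6 of 9 genes passed the filter. Ret, which encodes the signalling partner of the GDF15 receptor and is also a receptor of enteric neurons, averaged 17.0 ± 3.52 CPM (SD, n = 6) among control libraries and was higher, at 31.5 ± 5.85 CPM, among homozygous ones (log2 fold change 0.90, SE 0.12, edgeR adjusted p = 0.00047). In heterozygous mice it was at 21.9 ± 2.41 CPM (log2 fold change 0.41, edgeR adjusted p = 0.345), and the difference between the transgenic groups did not pass (0.49, adjusted p = 0.475). Smooth muscle markers, which mark the gut wall that holds the enteric neurons, had a median summed level of 3666 CPM in controls, 3287 CPM in heterozygous and 4718 CPM in homozygous libraries, and their part in the Ret difference was not tested. Klb, the gene of the FGF21 co-receptor, and Gfral, that of the GDF15 receptor, did not pass the filter, at control means of 1.91 and 0.00865 CPM.

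The remaining 5 lists had 0 calls in all 3 comparisons by edgeR, DESeq2 and limma-voom. At an unadjusted p under 0.05 they held 3 stress response genes and 1 ChREBP gene in homozygous and 2 stress response genes in heterozygous mice against controls, and 3 stress response and 4 of 12 ChREBP genes between homozygous and heterozygous mice. Of all 12645 genes tested, 1019 had such a p in homozygous and 669 in heterozygous mice against controls, and 962 between the transgenic groups. The 5 lists began with 24 integrated stress response genes, which include drivers of Fgf21 and Gdf15, with a median homozygous log2 fold change of -0.01 and Atf4 at 0.00 (SE 0.09) and Slc3a2 at -0.16 (SE 0.09). The 12 endoplasmic reticulum stress genes had a median of -0.02, with Calr at -0.06 (SE 0.10) and Hspa5 at 0.03 (SE 0.14). The 10 tested thioredoxin and arrestin genes around Txnip had a median of 0.01, with Txn1 at -0.00 (SE 0.10) and Txnrd1 at -0.03 (SE 0.08). The 12 genes of the glucose-sensing factor ChREBP had a median of -0.11 in homozygous and 0.12 in heterozygous mice and of -0.28 between them (-0.00 over all genes tested), where 11 of 12 were lower in homozygous mice and none was called, with Gpd1 at -0.00 (SE 0.11) and 0.20 (SE 0.11). The 14 glucocorticoid and FoxO targets had a median of -0.07, with Sgk1 at 0.20 (SE 0.23) and Sesn1 at -0.19 (SE 0.10).

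**Figure D5:**
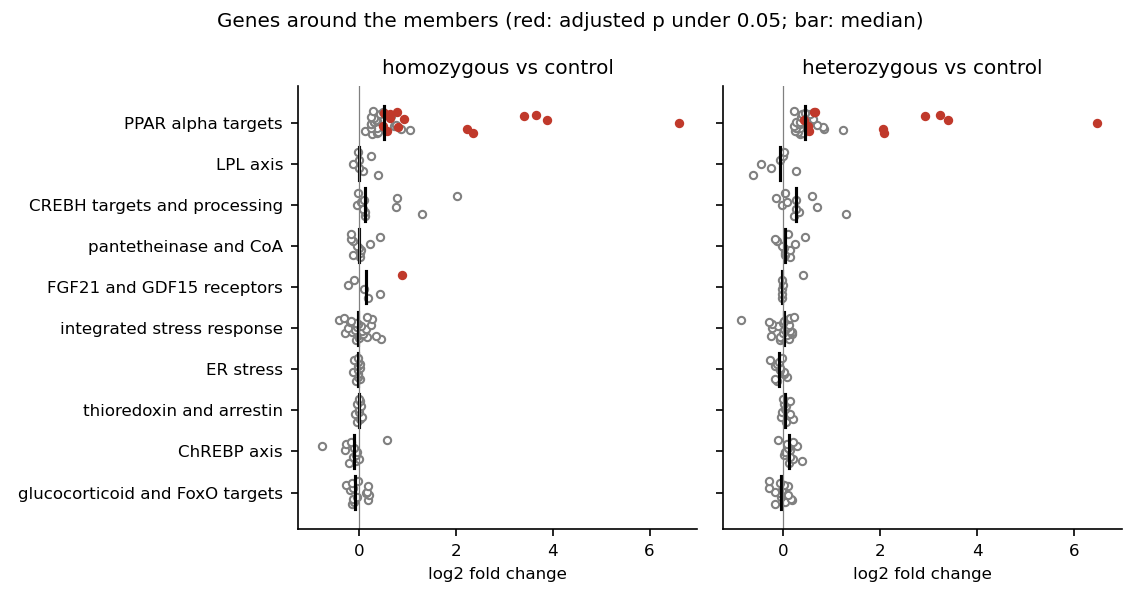
Log2 fold change (x axis) of each tested gene in the 10 lists (rows) for homozygous (left) and heterozygous (right) against control mice, with red points for an adjusted p under 0.05 and a black bar for the list median. Red points fall among PPARα targets in both panels, with medians of 0.52 and 0.45, and on Ret alone among the other lists.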

How the data were processed

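Whole-thickness ileal RNA was poly-A selected and sequenced in paired reads. The authors used STAR to align reads to the GRCm38 assembly of Ensembl and deposited the count of uniquely aligned unambiguous reads per gene from featureCounts, together with CPM and FPKM values per gene in the same files. Reads shared with near-identical genes are left out by such counting, and whether strand was used is not given in the sources used here. A deposited log2 table of moderated CPM was not used. The members and gene lists were chosen with earlier results of these data known. Named genes were the 6 members, Ppara, the 3 genes with the highest r to each tested member with and without genotype means, and from each list the genes called, otherwise the 2 with the highest mean FPKM. Some genes that this rule names are not reported here.

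The counts of 12645 protein-coding genes, those above 3 CPM in 4 or more libraries, were fitted with edgeR 4.0.16 (TMM, quasi-likelihood test, Benjamini-Hochberg adjustment, called at 0.05) in R 4.3.3, with all 18 libraries in 1 fit and 1 coefficient per genotype. The filter was the one the study states, but in these counts it kept more genes than the study gives, so the tested set differs from the study's. The study's test is not named. Intervals are the estimate ± 1.96 SE. Log2 CPM used a prior count of 2. Members under the filter were compared by a two-sided exact permutation test written in Python 3.11.15. Its code was checked on random numbers against the permutation test of SciPy 1.17.1. Replicates were separate mice. The 45 pairs of libraries within groups differed beyond counting noise, with a chi-square per gene of 22.4 to 118. Alternatives were DESeq2 1.42.0, limma-voom (limma 3.58.1), other scalings and filters, sex or replicate number as a term, and leaving out each library. Fits without libraries high in adipocyte or B cell markers, with marker scores as covariates and by sex, and the marker list without Fabp1, were added after seeing the data.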

Additional observations from a re-analysis of the deposited data

Results flagged for a closer look

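In homozygous replicate 3, Fgf21 stood far above the other 5 homozygous libraries, with 17 counts (0.387 CPM) against a next highest level of 0.112 CPM and a gap of 0.711 of the whole range of the group. This was 1 of 18 groups of 6 libraries examined over the 6 members, and chance alone exceeds the limit used (Dixon's critical value at the 95% level) in about 1 group of 20. The same library had an adipocyte marker sum of 903 CPM, the highest smooth muscle marker sum of the 18 libraries (9099 CPM) and the highest Angptl4 level (130 CPM).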

How the results depend on the processing

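No fitted log2 fold change of the 4 tested members changed sign under the alternatives run on mice of both sexes together. In females alone, 2 values that were called in no fit turned, Txnip in homozygous against control mice from 0.14 to -0.05 and Creb3l3 in homozygous against heterozygous mice from -0.21 to 0.18. The count of members called in homozygous mice (1, Vnn1) became 3 with DESeq2 (Angptl4, Creb3l3 and Vnn1), and 0 without the 5 libraries high in adipocyte markers or without the 4 high in B cell markers, where Vnn1 had log2 fold changes of 0.74 and 0.63 (edgeR adjusted p = 0.125 and 0.0727) with fewer samples. It stayed at 1 in all 18 fits that left out 1 library. The count in heterozygous mice (1, Vnn1) became 2 with DESeq2 or with the adipocyte score as a covariate (Creb3l3 and Vnn1). It became 0 without the adipocyte-high libraries, without the B cell-high libraries and in a fit of only the 12 libraries compared, and ranged from 0 to 2 when 1 library was left out. None was called between homozygous and heterozygous mice under any alternative. For Fgf21 in homozygous against control mice, the difference of 0.0024 CPM turned to -0.33 in log2 CPM, to -0.0015 in TMM-normalized CPM and to -0.0043 on the log2 scale in edgeR without the filter. Leaving out 1 library, the Fgf21 difference ran from -0.0561 to 0.0212 CPM for homozygous against control mice (negative without homozygous replicate 3), from -0.0687 to -0.0346 CPM for heterozygous against control mice (lowest without control replicate 5, exact permutation p = 0.0411) and from -0.0057 to 0.0716 CPM between the transgenic groups. The Gdf15 difference ran from -0.745 to -0.0680 CPM, from -0.558 to 0.119 CPM (positive without control replicate 4) and from -0.361 to -0.0459 CPM in the same order. Over all genes, DESeq2 called 136, 82 and 9 genes in the 3 comparisons against 52, 37 and 1 by edgeR. Without the adipocyte-high libraries edgeR called 32, 18 and 0, and without the B cell-high libraries 31, 15 and 0. The causes of these shifts were not tested. Among the members, depth limits Fgf21, with 0 to 17 counts per library.

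Correlations of same-numbered libraries, with genotype means taken off, ran from -0.61 to 0.64. They cannot decide whether replicate numbers pair the mice, because the libraries also differed in fat, muscle and B cell content. With the replicate block the heterozygous count of members called was 0 (Vnn1 log2 fold change 0.64, edgeR adjusted p = 0.105) and the homozygous count stayed at 1. The block lowered the heterozygous calls over all genes from 37 to 22, and not every library correlated best with its own number.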
